A study of Mus musculus with 69 samples.

Results

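Variant histones are the histone proteins that are encoded apart from the replication-dependent histone clusters, and 9 genes for variants other than H3.3 were followed here across mouse embryonic stem cells (ESCs) with and without the H3.3K27R mutation. The 9 genes were listed by name, with no threshold on their values. They are H2afz and H2afv for H2A.Z, H2afx for H2A.X, H2afy and H2afy2 for macroH2A, H2afj for H2A.J, H1f0 and H1fx for the linker histones H1.0 and H1.10, and Cenpa for the centromeric H3 variant CENP-A. All 9 were found among the 16263 genes of the count table, and all 9 passed the filter on low counts that left 14061 genes for testing. The mRNA-seq data comprised 6 libraries of J1 ESCs (strain 129S4/SvJae), 2 from wild-type (WT) cells, 2 from Mut18 and 2 from Mut43, both clones with H3.3K27R. There, CRISPR-Cas9 had been used to change lysine 27 of H3.3 to arginine in all alleles of H3f3a and H3f3b. Cells had been grown on feeder cells and then without them before harvest, and ATAC-seq was available from 2 further libraries of each line. Each mutant line is 1 clone, so a difference between the mutants and WT rests on 2 clones.

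Core variants replace their canonical counterparts in some nucleosomes and are put in place by dedicated chaperones and remodellers. H2A.Z sits at promoters and enhancers and is put in place by the SRCAP and TIP60 complexes, H2A.X is phosphorylated around DNA breaks, and macroH2A carries a large extra domain and is enriched in silent chromatin such as the inactive X chromosome. CENP-A marks the centromere, and linker histones bind the DNA that enters and leaves the nucleosome. MacroH2A and H1.0 are known to increase when pluripotent cells differentiate, whereas H2A.Z and CENP-A are abundant in dividing cells.

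The 6 libraries held between 14992756 and 15143998 counts, and the members held between 156 and 12909 counts in a library. H3f3a was at 698 and 726 CPM (counts scaled to the adjusted library total) in WT and between 560 and 635 CPM in the mutants, and its log2 fold change was -0.23 (edgeR quasi-likelihood test, Benjamini-Hochberg adjusted p = 0.00016). The other edited gene, H3f3b, was at 822 and 823 CPM in WT and between 774 and 900 CPM in the mutants (log2 fold change 0.03, adjusted p = 0.637). The log2 fold change of H3f3b was -0.07 in Mut18 (adjusted p = 0.210, edgeR) and 0.12 in Mut43 (0.0162). Mut43 against Mut18 gave 0.19 for H3f3b (adjusted p = 0.0402, edgeR), a comparison in which 0.327% of all tested genes passed. Neither level checks the edit, which changes 1 codon. Of 12 ESC markers, 9 were higher and 2 lower in the mutants, beside 23.5% and 24.5% of all tested genes. Pou5f1, the core pluripotency factor, fell from 803 and 851 CPM in WT to between 664 and 705 CPM (log2 fold change -0.27, adjusted p = 4.22e-06, edgeR). Utf1 fell by 0.19 on the log2 scale, whereas Zfp42 rose by 0.72 and Esrrb rose by 0.41.

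The comparison of both clones with WT addresses whether the genes of the other variants are expressed differently in the clones with H3.3K27R. In these clones the paper reports a loss of H3K27ac and also a moderate decline of H3K27me3 at bivalent regions. The comparison does not separate the 2 marks. Of the 9 members, 3 were higher in the mutants (H2afv, H1f0 and H1fx), 1 was lower (H2afy2) and 5 did not pass an adjusted p of 0.05. This is 4 of 9, beside 48.0% of all tested genes called in either direction, 23.5% higher and 24.5% lower. None of the 9 passed the threshold with a change beyond 2-fold, beside 8.93% of all genes, and 4 had an unadjusted p under 0.05, beside 53.9%. The median log2 fold change was 0.05 over the members and -0.0041 over all genes, and the median size of the change was 0.16 and 0.23, respectively. The balance of higher and lower calls depended on the scaling, since upper quartile scaling left 1 higher and 1 lower, and scaling by library totals left 1 higher and 2 lower. DESeq2, which differs in both scaling and test, left 1 higher and 1 lower, whereas its size factors in edgeR left 3 higher and 1 lower. H2afv and H2afy2 passed in each of the 15 alternatives of this comparison.

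**Figure D1:**
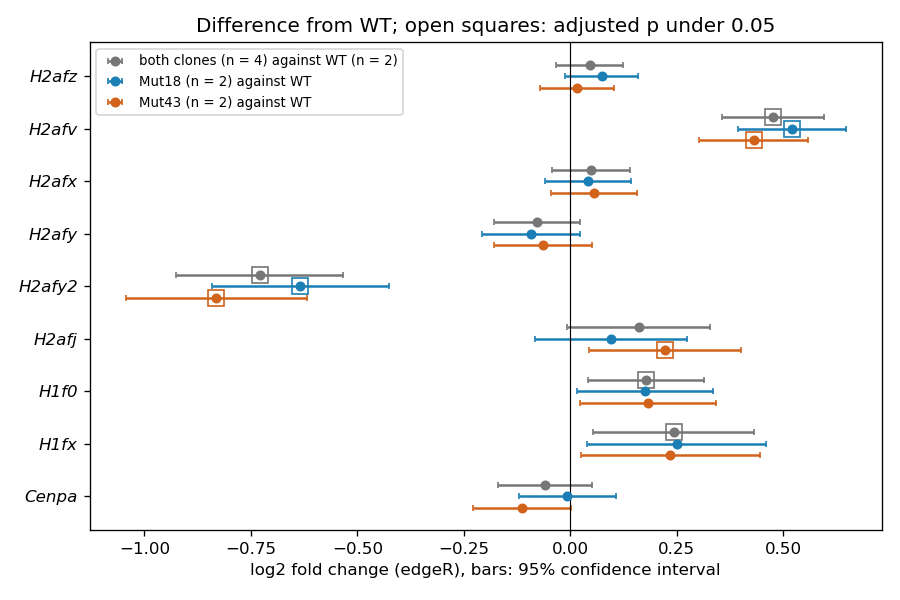
Log2 fold change (x axis) of the 9 variant histone genes (y axis) in both clones together, in Mut18 and in Mut43 against WT, with 95% confidence intervals from edgeR as bars and open squares at an adjusted p under 0.05. H2afv lies above 0 and H2afy2 below 0 in all 3 comparisons, and the intervals of H2afz, H2afx and H2afy include 0 in each.

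Levels between genes were compared as CPM per kb of annotated exon. In WT, H2afz led with 761 ± 31 CPM per kb (SD, n = 2), followed by H2afx with 160 ± 10 and Cenpa with 53.6 ± 2.9. H2afy was at 36.7 ± 2.0 and H2afv at 34.5 ± 1.9 CPM per kb, and the WT libraries of these neighbours overlapped. H2afj was at 19.1 ± 0.78, H1f0 at 14.6 ± 0.17, H1fx at 13.6 ± 1.6 and H2afy2, the lowest, at 9.11 ± 0.66 CPM per kb, and only H1f0 and H1fx overlapped among these. In the mutants the order differed at 1 place: H2afv, at 48.0 ± 2.8 CPM per kb (SD, n = 4), no longer overlapped H2afy at 34.8 ± 0.84 but overlapped Cenpa at 51.5 ± 2.8. H2afz remained the most abundant member at 785 ± 20 CPM per kb, and H2afy2 the least abundant at 5.49 ± 0.50.

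**Figure D2:**
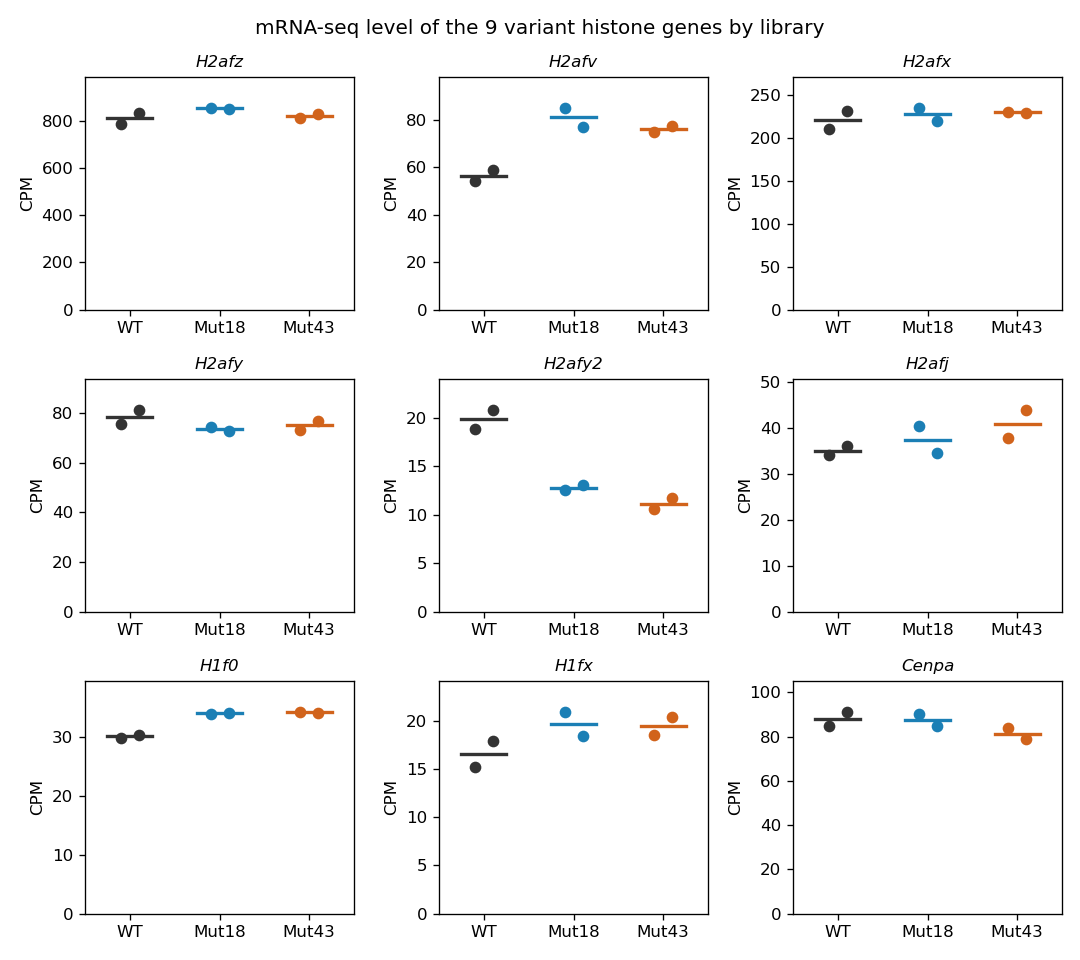
Normalised level in CPM (y axis, from 0) of each variant histone gene in the 2 libraries of WT, Mut18 and Mut43 (x axis), with points for libraries and horizontal lines for the mean of each line. All 4 mutant libraries lie above both WT libraries for H2afv, H1f0 and H1fx and beneath them for H2afy2, and the groups overlap for the other 5 genes.

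H2A.Z is encoded by H2afz and H2afv, whose proteins are nearly identical. H2afv (ENSMUSG00000041126.16, chr11:6427229-6444443, minus strand, GRCm38) was at 54.2 and 58.6 CPM in WT, at 85.1 and 76.7 CPM in Mut18 and at 74.7 and 77.2 CPM in Mut43. Every mutant library was thus higher than both WT libraries, which was also so for 29.4% of all tested genes. The mean rose by 39.1%, a log2 fold change of 0.48 (SE 0.057, adjusted p = 8.07e-07, edgeR). H2afz (ENSMUSG00000037894.13, chr3:137864487-137866922, plus strand) was at 790 and 836 CPM in WT, at 858 and 853 CPM in Mut18 and at 813 and 831 CPM in Mut43. These groups overlapped, and the log2 fold change of 0.05 (95% interval -0.03 to 0.12) did not pass (adjusted p = 0.341).

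A ratio within a library does not depend on its scaling. H2afv made up 6.42% and 6.55% of the counts on both H2A.Z genes in the WT libraries, against 9.02% and 8.25% for Mut18 and 8.42% and 8.50% for Mut43. The mean share was 6.48% in WT and 8.55% in the mutants, a difference of 2.06 percentage points. The exact permutation test over libraries gave p = 0.133 (two-sided), the smallest p that 2 against 4 libraries allow, so this test could not reach 0.05. At most 9.02% of the H2A.Z counts of a library fell on H2afv.

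The rise of H2afv was of the size seen along its chromosome. The median log2 fold change of the 1182 tested genes of chromosome 11 was 0.39, and 67.0% of them were higher in the mutants. H2afv exceeded this median by 0.090 on the log2 scale, and 34.9% of the chromosome's genes had a higher log2 fold change. Within 250 kb of H2afv, 10 of 15 tested genes were higher and 1 was lower, with a median log2 fold change of 0.29. The part of the chromosome-wide shift in the level of H2afv was not tested. H3f3b, an edited gene, is also on chromosome 11 and had a log2 fold change of 0.03 (adjusted p = 0.637, edgeR).

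**Figure D3:**
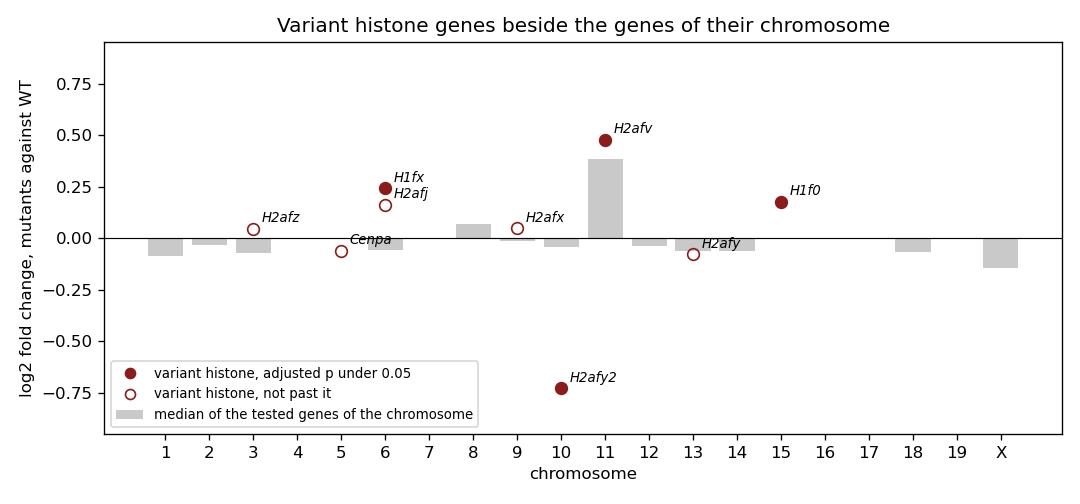
Log2 fold change of mutants against WT (y axis) by chromosome (x axis), with bars for the median of all tested genes of the chromosome and points for the variant histone genes, filled where the adjusted p was under 0.05. H2afv lies near the bar of chromosome 11, which reaches 0.39, while H2afy2 lies at -0.73 on chromosome 10, whose bar is near 0.

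The upstream sequences of this pair differ. They are shown from RefSeq (GRCm38.p6) for the bases that lie in no annotated exon, 5′ to 3′ on the strand of each gene, chr3:137864375-137864486 for H2afz and chr11:6444512-6444693 for H2afv. Capitals mark matches, on either strand, to a CCAAT box (CCAAT), an SP core (GGGCGG) and an E2F core (searched as TTCCCGC, then also spelled TTGGCGC, and lastly with the spelling TTCGCGC).
H2afz: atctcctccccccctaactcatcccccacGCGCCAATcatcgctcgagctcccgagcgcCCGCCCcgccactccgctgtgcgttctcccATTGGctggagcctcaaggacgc
H2afv: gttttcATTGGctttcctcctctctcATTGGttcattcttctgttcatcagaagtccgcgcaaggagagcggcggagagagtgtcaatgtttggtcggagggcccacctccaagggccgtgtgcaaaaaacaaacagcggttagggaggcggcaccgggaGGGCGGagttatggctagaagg
The stretches are not matched in position: that of H2afz runs from 112 to 1 bases before the start site, that of H2afv from 250 to 69. In H2afz the leading capitals hold an E2F core and a CCAAT box that overlap, and an SP core and a second CCAAT box follow. The stretch of H2afv holds 2 CCAAT boxes and 1 SP core and no E2F core.

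Promoter entries of 300 bases were found for 8 of the 9 members, and H2afx had no entry. A CCAAT box was present in 5 of the 8 (H2afz, H2afv, H2afy2, H2afj and Cenpa), beside 37.4% of 32851 mouse promoters of the same length. An E2F core was present in 3 (H2afz, H2afy2 and H1fx), beside 8.07%, and an SP core in 7, all but H2afy2, beside 35.7%. The CHR element, searched as TTTGAA and also with the spelling TTCGAA, was present in H2afv and Cenpa, beside 19.2%. The AAACACA element known from linker histone promoters matched none of the 8, beside 7.18%. These are matches of letters and were not tested.

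Of the 31 genes of the complexes that exchange H2A.Z, 9 were higher, 1 was lower and 21 did not pass. Their median log2 fold change was 0.06, and 23.5% of all tested genes were higher and 24.5% lower. Among the higher genes, Mbtd1 lies on chromosome 11. Ino80, the ATPase of the INO80 remodeller, rose by 0.54 on the log2 scale (adjusted p = 1.80e-07, edgeR), from 88.9 and 89.9 CPM in WT to between 121 and 142 CPM. Trrap, the scaffold of the TIP60 complex, rose by 0.35 and the INO80 subunit Ino80c fell by 0.40 on the same scale. The number of lower genes was 2 with upper quartile scaling and 3 with library totals.

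MacroH2A is encoded by H2afy (macroH2A1) and H2afy2 (macroH2A2), and the latter had the log2 fold change of the largest size among the 9 members. H2afy2 (ENSMUSG00000020086.6, chr10:61738665-61784147, minus strand) was at 18.8 and 20.8 CPM in WT, at 12.5 and 13.0 CPM in Mut18 and at 10.5 and 11.7 CPM in Mut43. All mutant libraries were lower than both WT libraries, as for 30.4% of all tested genes (59.8% did not overlap in either direction). Its log2 fold change was -0.73 (SE 0.094, adjusted p = 2.07e-06, edgeR), and 9.44% of all genes had a lower one. In bulk libraries, fewer cells of a type and less RNA per cell cannot be told apart. H2afy (ENSMUSG00000015937.15, chr13:56073619-56136361, minus strand) was at 75.5 and 81.4 CPM in WT and between 72.8 and 76.8 CPM in the mutants. The groups overlapped and its log2 fold change was -0.08 (95% interval -0.18 to 0.02, adjusted p = 0.189), which passed only with scaling by library totals (adjusted p = 0.0459, up to 0.874 over the alternatives).

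H2afy2 made up 19.9% and 20.4% of the counts on H2afy and H2afy2 in the WT libraries. For Mut18 it was 14.4% and 15.2%, and for Mut43 12.6% and 13.2%. H2afy3, a near copy of H2afy2 that is also in the count table, was left out, and reads shared with it were not measured. The mean share went from 20.2% to 13.8%, with no overlap between the groups (exact permutation test, two-sided p = 0.133, the smallest possible).

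**Figure D4:**
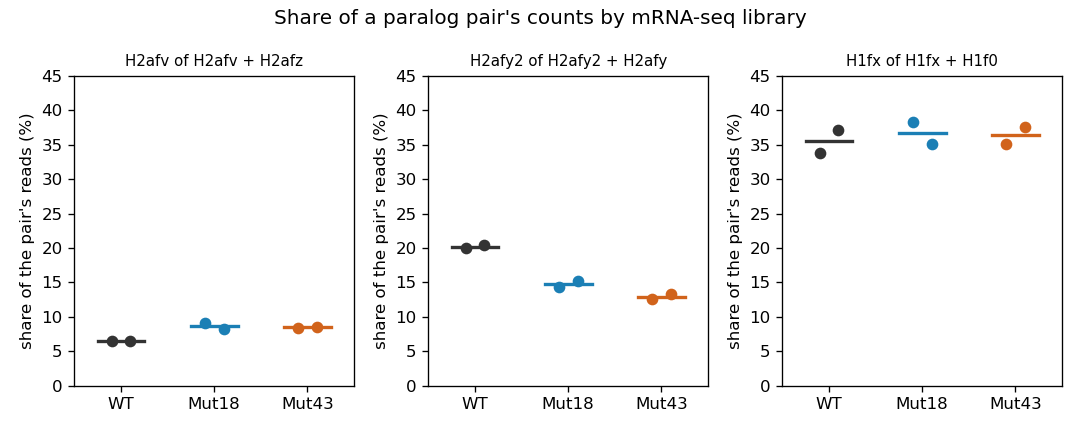
Share of the counts of a gene pair that fell on the named gene (y axis, percent) in each mRNA-seq library of WT, Mut18 and Mut43 (x axis), with lines for the mean of each line. The share of H2afv is between 8.25% and 9.02% in the mutants against 6.42% and 6.55% in WT, that of H2afy2 is between 12.6% and 15.2% against 19.9% and 20.4%, and the share of H1fx overlaps.

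Markers of other cell types were counted beside H2afy2. Of 12 genes marking early differentiation, 6 were lower and 2 higher in the mutants, beside 24.5% and 23.5% of all tested genes. Their summed level was 362 to 368 CPM in WT and 210 to 228 CPM in the mutants. T, a mesoderm transcription factor, fell by 2.63 and Fgf5, an epiblast growth factor, fell by 2.58 on the log2 scale, Nes and Sox1, of neural progenitors, fell by 1.51 and fell by 1.10, and Hand1, a trophoblast and mesoderm factor, rose by 1.33. Of 11 tested feeder fibroblast markers, 10 were lower and none higher, with sums of 266 and 347 CPM in WT and of 164 to 215 CPM in the mutants, while Lum, the marker left out by the filter, was at 0 in 3 of the 6 libraries. The 6 fibroblast markers lower by more than 2-fold were Col3a1, Twist1, Prrx1, Postn, Dcn and Fbn1, with log2 fold changes from -2.22 to -1.11. Of 8 tested primitive endoderm markers, 3 were higher and 3 lower, and their sums of 141 and 196 CPM in WT enclosed those of 183 to 189 CPM in the mutants. Lama1, a laminin chain, rose by 1.29 on the log2 scale, and Foxa2, an endoderm factor, was at 0.98 CPM or less in every library and fell by 3.21. WT library 1 held the higher fibroblast sum, with Col3a1, a fibrillar collagen, at 55.9 CPM against 17.1 CPM in WT library 2. H2afy2 was the higher of the 2 in WT library 2, whose fibroblast sum of 266 CPM still exceeded that of every mutant library. Without WT library 1 the log2 fold change of H2afy2 was -0.80. The part of fibroblast and of early differentiation markers in the fall of H2afy2 was not tested. None of the 6 tested genes within 250 kb of H2afy2 passed the threshold. Among these is Aifm2, which shares exon sequence with H2afy2 on the opposite strand and had a log2 fold change of -0.03 (adjusted p = 0.909). The log2 fold change of H2afy2 minus the median of chromosome 10 was -0.68.

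Of the 12 genes chosen as partners of macroH2A, 4 were higher, 2 were lower and 6 did not pass. Their median log2 fold change was -0.02, and 23.5% of all tested genes were higher and 24.5% lower. Parp1, the ADP-ribosylating enzyme that binds macroH2A, rose by 0.32 and Spop, an adaptor that directs ubiquitination of macroH2A, rose by 0.33 on the log2 scale, and Spop lies on chromosome 11. The co-chaperone Dnajc9 fell by 0.41 and the deacetylase Hdac2 fell by 0.17. With library totals, 4 genes of the list were lower.

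Among 37 ATAC-seq regions on or within 10 kb of the 9 members, 24 had a peak in all 6 libraries, as did 54.7% of 89596 regions genome-wide. A single region carried a peak in each of the 4 mutant libraries but in neither WT library, a pattern of 0.733% of all regions, and it lay in an intron of H2afy2, 33.9 kb downstream of the start site. Its fold enrichment was 6.93 and 6.47 in Mut18 and 6.17 and 8.12 in Mut43, with a -log10 q between 12.0 and 18.0. The reverse pattern, both WT libraries and no mutant one, is that of 3.25% of all regions and occurred 1 time, in an intron of H2afy, 22.9 kb downstream, with a fold enrichment of 3.77 and 4.47 and a -log10 q of 10.3 and 10.2. Peaks had been called per library above a -log10 q of 6, so a missing peak shows only that the signal did not pass this limit. These regions were singled out after their peaks were seen.

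Both regions are shown on the plus strand of GRCm38 because they separate the lines, chr10:61750144-61750302 in H2afy2 and chr13:56112554-56112799 in H2afy. Capitals mark the bases covered by the peaks of all libraries that have one there, 140 bases in H2afy2 and 135 in H2afy.
H2afy2 intron: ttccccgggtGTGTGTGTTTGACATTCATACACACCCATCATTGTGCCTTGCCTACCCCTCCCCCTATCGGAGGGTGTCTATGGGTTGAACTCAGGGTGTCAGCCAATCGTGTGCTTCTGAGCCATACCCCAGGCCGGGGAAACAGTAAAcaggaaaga
H2afy intron: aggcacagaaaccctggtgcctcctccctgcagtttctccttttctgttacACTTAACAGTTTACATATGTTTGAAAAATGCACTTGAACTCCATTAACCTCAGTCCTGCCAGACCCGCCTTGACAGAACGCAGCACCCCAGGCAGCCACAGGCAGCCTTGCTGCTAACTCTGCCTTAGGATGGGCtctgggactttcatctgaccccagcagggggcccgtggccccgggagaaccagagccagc
Neither region overlaps an annotated exon. Their GC content was 54.1% in H2afy2 and 55.7% in H2afy.

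The linker histones H1.0 and H1.10 both had slightly higher mRNA levels in the mutants. H1f0 (ENSMUSG00000096210.2, chr15:79028450-79030504, plus strand) was at 29.8 and 30.3 CPM in WT, at 33.8 and 34.1 CPM in Mut18 and at 34.3 and 34.0 CPM in Mut43. Its libraries differed little within a line, all mutant libraries were higher than WT, as for 29.4% of all tested genes, and the mean rose by 13.1% (log2 fold change 0.18, SE 0.065, adjusted p = 0.0296, edgeR). H1fx (ENSMUSG00000044927.6, chr6:87980421-87981637, minus strand) was at 15.2 and 18.0 CPM in WT, at 21.0 and 18.5 CPM in Mut18 and at 18.6 and 20.5 CPM in Mut43. The highest WT library lay close to the lowest mutant libraries, and the mean rose by 18.3% (log2 fold change 0.24, SE 0.091, adjusted p = 0.0328). H1f0 passed in 10 of 15 alternatives, with adjusted p from 0.0138 to 0.131, and lost its call without WT library 1 (0.131) or WT library 2 (0.0729). H1fx passed in 9 of 15, with adjusted p from 0.0114 to 0.385, and lost its call without WT library 1, where its log2 fold change was 0.13 (0.385), without Mut18 library 1 (0.0780) or without Mut43 library 2 (0.0660).

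The share of H1fx in the counts of both linker genes was 33.8% and 37.2% in WT and between 35.2% and 38.3% in the mutants. The groups overlapped (exact permutation test, two-sided p = 0.533). Both genes are single-exon genes whose exons overlap an antisense transcript, and without strand information reads of both strands cannot be told apart. The limit on strands also applies to H2afy, whose exons overlap an antisense transcript, and to H2afx and H2afj, whose exons overlap opposite-strand microRNA genes. Of 16 chaperones and competitors of linker histones, 2 were higher, 5 lower and 9 did not pass. Their median log2 fold change was -0.07, and 23.5% of all tested genes were higher and 24.5% lower. The higher genes included Npm1, which lies on chromosome 11. Hmgn3, a nucleosome-binding protein that competes with linker histones, was the sole member past 2-fold and fell by 1.30 on the log2 scale, from 5.90 and 6.18 CPM in WT to between 2.06 and 3.16 CPM. With library totals, 8 of the list were lower.

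H2afx (ENSMUSG00000049932.3, chr9:44334694-44336077, plus strand) was at 211 and 231 CPM in WT, at 236 and 220 CPM in Mut18 and at 230.2 and 229.5 CPM in Mut43. The groups overlapped, and the log2 fold change was 0.05 (95% interval -0.04 to 0.14, adjusted p = 0.385). H2afj (ENSMUSG00000060032.6, chr6:136808244-136810074, plus strand), a variant that is known to accumulate in senescent cells, was at 34.0 and 36.0 CPM in WT, at 40.4 and 34.4 CPM in Mut18 and at 37.7 and 43.9 CPM in Mut43. Mut18 library 2 lay between the WT libraries, and the log2 fold change of 0.16 did not pass (95% interval -0.01 to 0.33, adjusted p = 0.107).

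Of 24 tested genes for the phosphorylation of H2A.X and its readout, 8 were higher, 3 lower and 13 did not pass. Their median log2 fold change was 0.05, and 23.5% of all tested genes were higher and 24.5% lower. Of the higher genes, Brca1, Rad50, Ppp2ca and Ppm1d lie on chromosome 11, where 67.0% of tested genes were higher. Eya4, of the phosphatase family that acts on H2A.X, was the one member past 2-fold and fell by 1.50 on the log2 scale, at 1.10 and 1.11 CPM in WT and 0.60 CPM or less in each mutant library. With library totals, 7 were lower.

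Cenpa (ENSMUSG00000029177.9, chr5:30666777-30674830, plus strand) was at 84.7 and 91.4 CPM in WT, at 90.1 and 85.0 CPM in Mut18 and at 83.9 and 78.8 CPM in Mut43. The groups overlapped, and the log2 fold change was -0.06 (95% interval -0.17 to 0.05, adjusted p = 0.367). Among 24 genes for CENP-A loading and the centromere, 5 were higher, 6 lower and 13 did not pass. Their median log2 fold change was 0.01, and 23.5% of all tested genes were higher and 24.5% lower. Hjurp, the chaperone that deposits CENP-A, fell by 0.53 on the log2 scale (adjusted p = 0.0198, edgeR), from 4.28 and 5.79 CPM in WT to between 2.93 and 3.99 CPM. By clone, the log2 fold change of Hjurp passed in Mut18 (-0.68, adjusted p = 0.0092, edgeR) but not in Mut43 (-0.39, 0.112). Itgb3bp (CENP-R) fell by 0.47, whereas Cenpm rose by 0.46. Stra13 rose by 0.40, but this symbol has been used both for CENP-X and for another gene, so its identity is uncertain.

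Variant levels can follow the cell cycle, so markers of its phases are given beside them. Of 22 S phase genes, 5 were higher and 4 lower, beside 23.5% and 24.5% of all tested genes. Their median log2 fold change was 0.02. Cdc6, a replication licensing factor, rose by 0.49 and the cyclin Ccne2 fell by 0.29 on the log2 scale, while Ung, a uracil glycosylase, rose by 0.35 and Tyms, the thymidylate synthase, fell by 0.20. Of 22 G2/M genes, 4 were higher and 4 lower, with a median log2 fold change of 0.0027. Top2a, the mitotic topoisomerase, rose by 0.55 and Birc5 rose by 0.40, and Cdc20 and Foxm1 each fell by 0.23. Cdc6, Top2a and Birc5 lie on chromosome 11.

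Each clone was also compared with WT, and both comparisons share the WT libraries. In Mut18, 1 member was higher (H2afv, log2 fold change 0.52) and 1 lower (H2afy2, -0.63), beside 41.3% of all genes called, 20.3% higher and 21.0% lower. In Mut43, 2 were higher (H2afv, 0.43, and H2afj, 0.22) and 1 lower (H2afy2, -0.83), beside 46.8% called, 22.9% higher and 23.9% lower. H1f0 had a log2 fold change of 0.17 in Mut18 (adjusted p = 0.0744, edgeR) and of 0.18 in Mut43 (0.0577), and H1fx of 0.25 (0.0516) and 0.23 (0.0622). The call of H2afj in Mut43 (0.0363) was lost with DESeq2 (0.133), with upper quartile scaling (0.0702), with library totals (0.101) and without WT library 1 (0.135) or Mut43 library 2 (0.449). Over its alternatives the adjusted p of H2afj in Mut43 ran from 0.0157 to 0.449.

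Between the clones, no member passed (edgeR, 0 of 9, beside 0.327% of all genes), and none had an unadjusted p under 0.05, beside 8.52%. DESeq2 also called 0 of 9 after adjustment. The lowest adjusted p was that of Cenpa, 0.635, with a log2 fold change of Mut43 against Mut18 of -0.11 (95% interval -0.22 to 0.0092). The interval of H2afy2 was wider, from -0.43 to 0.03 around -0.20, and that of H2afj ran from -0.05 to 0.30, so these libraries do not show that the clones have equal levels.

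Accessible chromatin at the members' start sites was compared through the deposited ATAC-seq peaks. A peak lay within 500 bp of an annotated start site in all 6 libraries for 8 of the 9 members, beside 83.0% of 13941 tested genes with a place. H2afy had one in 5 libraries and lacked it in Mut43 library 2, and all 9 members had a peak in all 6 libraries within 1000 bp. The region on the H2afy start sites (chr13:56135402-56135954) had a peak only in both WT libraries and Mut43 library 1. In Mut18 the counted peak lay in a neighbouring region, centred 630 bp downstream, that held a peak in all 6 libraries. This neighbouring region also held the strongest peak of Mut43 library 1. The fold enrichment of the strongest peak was highest for H2afv (11.5 to 12.8) and Cenpa (9.26 to 11.7). For the other 7 genes it lay between 4.03 and 7.05.

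At H2afv, whose mRNA rose, the peak had a fold enrichment of 11.5 and 12.7 in WT and of 12.0 to 12.8 in the mutants, and the ranges overlapped. At H2afy2, whose mRNA fell, it was 5.89 and 5.50 in WT and 5.50 to 7.05 in the mutants. At H1fx it was 5.83 and 5.79 in WT and between 6.44 and 7.01 in the mutants, and at H2afz 5.23 and 6.24 in WT and between 6.26 and 6.69 in the mutants. In 2 of the 8 members with a peak in all 6 libraries, these and no other, all mutant values were thus higher than both WT values, beside 17.7% of 11567 genes with a peak in all 6, and in none were all lower, beside 4.04%. These values are each library's own enrichment over its background and were not tested between libraries, which held between 63588 and 78536 peaks.

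**Figure D5:**
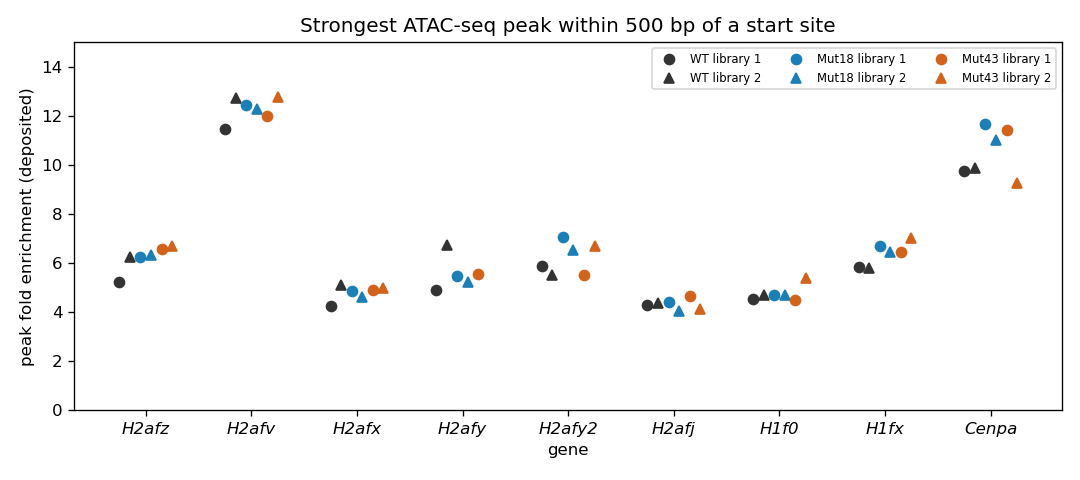
Fold enrichment (y axis, as deposited, from 0) of the strongest ATAC-seq peak within 500 bp of a start site of each variant histone gene (x axis), with colours for the line and symbols for the library. H2afv and Cenpa stand highest, from 9.26 to 12.8, and H2afy has no point for Mut43 library 2. The points of H2afy come from different regions in WT and in the mutants.

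The genes whose levels were most like those of 3 members across the 6 libraries are given as a description, over 11079 genes with a mean of at least 50 counts and on log2 CPM. For H2afv these were Per1, Nme2 and Pgs1 (Pearson r = 0.998, 0.998 and 0.997). For H2afy2 they were Fzd7, a Wnt receptor, Greb1 and Tenm3 (0.998, 0.998 and 0.997), and for H1f0 they were Lrrc59, Mettl16 and Pmpcb (0.999 each). The 6 libraries share 3 lines, and r was above 0.95 for 558 genes with H2afv, 810 with H2afy2 and 1302 with H1f0, so such values are common here.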

How the data were processed

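For mRNA-seq, the deposited table holds raw counts of reads on each gene. For ATAC-seq, the authors deposited peaks called in each library with MACS2, with a fold enrichment, a -log10 p and a -log10 q per peak. Per the labels, the build was mm10, and the processing notes name STAR and DESeq2 for mRNA-seq and Bowtie2 2.3.4.2 for ATAC-seq. The counter, gene annotation and strandedness are not given in the sources used here. Groups came from the sample titles, and replicates are independent according to the series text. ChIP-seq was not analysed here.

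Genes were filtered with edgeR 4.0.16 in R 4.3.3 (minimum count 10, minimum total 15), normalised by TMM and tested by the quasi-likelihood F-test with Benjamini-Hochberg adjustment, WT (n = 2) against both clones (n = 4). That test took the 4 mutant libraries as independent although they come from 2 clones, so its SE and p do not account for clones. Each SD and n likewise runs over libraries. The clones were tested in a fit with 3 groups. CPM values use TMM-adjusted totals. On simulated counts of mutants against WT (13880 genes), 87 of 100 changes of 1 and 61 of 100 changes of 0.4 (log2) were recovered, with 6 false calls. For Mut43 against Mut18 (13854 genes) it was 81 and 55 of 100, with 9 false calls. The simulated libraries varied independently, with no spread between clones in mutants against WT and no shift of chromosome 11. Their false calls thus do not measure those of the real comparisons. Positions and exon lengths are from GENCODE vM21, and 164 symbols had no place. Shares were tested by exact permutation, and Python 3.11.15 with pandas 2.3.3 was used. Near copies were sought among transcripts by blastn (at least 95% identity over 150 bases): H2afz, H2afx, H2afy2, H1f0, H1fx and Cenpa had some, so reads could be shared there.

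The members were listed by name, but they and the gene lists were chosen with earlier results of these data known. Named genes are all members, H3f3a and H3f3b, the list genes past an adjusted p of 0.05 and 2-fold (otherwise up to 2 in each direction with the largest change), and the 3 genes most alike to each of the 3 members with the lowest p. Lum, Aifm2, Mbtd1, Brca1, Rad50, Ppp2ca, Ppm1d and Npm1 fall outside this rule and were named after their values were seen. H2afy3 is named as a near copy of H2afy2. Alternatives were DESeq2 1.42.0, other scalings, filters, each library left out and a replicate block.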

Additional observations from a re-analysis of the deposited data

How the results depend on the processing

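H2afv and H2afy2 kept their direction and their side of the threshold under every alternative, in the mutants and in each clone. The log2 fold change of H2afv in the mutants ran from 0.42 to 0.54 and that of H2afy2 from -0.80 to -0.65. The number of members higher in the mutants was 1 with DESeq2, with upper quartile scaling and with library totals, and the number lower was 2 with library totals. In Mut18, 2 were higher with the size factors of DESeq2 in edgeR and with a minimum count of 50, and 3 with TMM factors from genes outside chromosome 11. In Mut43, 1 was higher with DESeq2, upper quartile scaling or library totals and 4 with TMM factors from genes outside chromosome 11, and 2 were lower with upper quartile scaling and with library totals. When each library was left out in turn, between 1 and 4 members were higher in the mutants, between 1 and 2 in Mut18 and between 1 and 3 in Mut43, and 1 was lower in each. The cause of these shifts was not tested, beyond the smaller number of libraries where 1 was left out.

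Members whose change did not pass changed sign close to 0. Cenpa in Mut18 went to 0.018 with TMM factors from outside chromosome 11 and to 0.0029 without a filter. H2afz in Mut43 went to -0.0070 with upper quartile scaling and -0.031 with library totals. Between the clones, H2afx went to -0.0011 with library totals, and H1f0 to -0.0033 with upper quartile scaling and -0.0079 with library totals. Leaving out 1 library gave log2 fold changes of H2afx from -0.013 to 0.12 in the mutants and from -0.0057 to 0.13 for Mut43. In Mut18 they ran from -0.020 to 0.12, and from -0.035 to 0.066 in the comparison of the clones. For Cenpa they ran from -0.11 to 0.0032 in the mutants and from -0.059 to 0.055 in Mut18, for H2afj in Mut18 from -0.024 to 0.21, and for H2afz in Mut43 from -0.022 to 0.065. Between the clones they ran from -0.0060 to 0.063 for H2afy and from -0.10 to 0.081 for H1fx. The difference in the share of H1fx ran from -0.632 to 2.75 percentage points, the lowest without WT library 1.

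With the replicate number as a block, 3 members were higher and 1 lower in the mutants, as without it. The block also left 1 higher and 1 lower for Mut18, 2 higher and 1 lower for Mut43, and 0 calls for Mut43 against Mut18. The numbers do not pair the libraries: deviations of same-numbered libraries correlated at -0.014, 0.025 and -0.0017 for the 3 pairs of lines. With 2 WT libraries, the WT level rests on few cultures. The calls of H1f0 and H1fx, members with small changes, were each lost under several alternatives. ATAC-seq depth is unknown from the peak lists.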
